A study of Mus musculus with 6 samples.

Results

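The 9 genes described here set the pace of the G1 phase of the cell cycle: the Cdk inhibitors Cdkn1a, Cdkn1b, Cdkn2a, Cdkn2b, Cdkn2c and Cdkn2d, and the D cyclins Ccnd1, Ccnd2 and Ccnd3. They were chosen by name, all 9 were measured, and they are 9 of 18194 genes on the arrays. Expression was measured on Affymetrix arrays in 3 kinds of spermatogonial stem cell culture from male ICR mice aged 3 to 5 days, with no genetic change or drug named for any of them. There were 2 arrays each of SSC (labelled unipotent), iSSC (labelled intermediate) and mSSC (labelled multipotent). Cells were kept on mitomycin-treated mouse embryonic fibroblasts in serum-free media, so feeder and testis cells can be part of a sample. The clumps placed on feeders were at passages 0 to 1 (early) or 9 to 10 (middle), and no source ties an array to a passage. Colonies that turned flat or took the shape of embryonic stem cell colonies were left in GS medium or moved to KSR-mES medium, and no source ties an array to a medium either. Whether both arrays of a kind stem from different mice or cultures is not stated, so the p-values cover only the spread among these arrays, which may be technical.

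D cyclins are made in response to growth factors and bind Cdk4 or Cdk6; the complex phosphorylates the retinoblastoma protein and so releases the E2f factors that switch on genes for DNA synthesis. The Ink4 inhibitors (Cdkn2a to Cdkn2d) bind Cdk4 and Cdk6 alone, whereas the Cip/Kip inhibitors Cdkn1a (p21) and Cdkn1b (p27) act on the complexes of Cdk2 with E and A cyclins too. Pluripotent embryonic stem cells are known for a short G1 phase with active Cdk2, and the locus that holds Cdkn2b and Cdkn2a is a known barrier to reprogramming of somatic cells.

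Cdkn2a and Cdkn2b are neighbours on mouse chromosome 4. The sequences before their starts are shown because both genes had low values in mSSC, together with the start regions of Cdkn1a and Cdkn1b, which moved in opposite directions there. Each is the stretch of 250 bases before a transcript start, 5′ to 3′ on the strand of the gene, from RefSeq (GRCm38.p6). Capitals mark matches, on either strand, to motifs. Those searched were the Sp1 box GGGCGG, the E2F motif TTTNNCGC and the CRE motif TGACGTCA. Also searched were the CCAAT box, the E-box CACGTG, the AP-1 motif TGANTCA and the TATA motif TATAAA.
Cdkn2b (chr4:89311033-89311282, minus strand): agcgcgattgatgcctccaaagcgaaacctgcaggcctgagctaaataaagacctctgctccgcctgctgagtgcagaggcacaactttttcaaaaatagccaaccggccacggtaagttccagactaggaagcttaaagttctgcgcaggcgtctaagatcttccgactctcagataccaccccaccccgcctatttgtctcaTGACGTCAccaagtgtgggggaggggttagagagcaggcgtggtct
Cdkn2a, start nearer to Cdkn2b (chr4:89294620-89294869, minus strand): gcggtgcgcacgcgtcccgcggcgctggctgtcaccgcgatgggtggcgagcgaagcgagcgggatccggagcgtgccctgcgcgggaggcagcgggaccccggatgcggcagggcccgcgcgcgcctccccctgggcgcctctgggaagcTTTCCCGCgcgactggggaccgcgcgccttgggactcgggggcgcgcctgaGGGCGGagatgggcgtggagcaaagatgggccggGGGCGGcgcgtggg
Cdkn2a, start farther from Cdkn2b (chr4:89282193-89282442, minus strand): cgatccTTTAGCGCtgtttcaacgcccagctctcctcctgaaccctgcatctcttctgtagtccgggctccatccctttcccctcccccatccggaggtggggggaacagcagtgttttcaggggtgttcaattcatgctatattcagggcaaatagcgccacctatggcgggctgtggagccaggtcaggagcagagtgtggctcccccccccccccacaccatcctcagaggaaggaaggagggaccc
Cdkn1a, downstream start (chr17:29093519-29093768, plus strand): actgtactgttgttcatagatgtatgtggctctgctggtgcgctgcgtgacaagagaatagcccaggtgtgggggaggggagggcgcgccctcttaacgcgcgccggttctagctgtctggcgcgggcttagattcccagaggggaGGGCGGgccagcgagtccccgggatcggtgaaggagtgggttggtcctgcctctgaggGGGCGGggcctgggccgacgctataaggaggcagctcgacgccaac
Cdkn1b (chr6:134920151-134920400, plus strand): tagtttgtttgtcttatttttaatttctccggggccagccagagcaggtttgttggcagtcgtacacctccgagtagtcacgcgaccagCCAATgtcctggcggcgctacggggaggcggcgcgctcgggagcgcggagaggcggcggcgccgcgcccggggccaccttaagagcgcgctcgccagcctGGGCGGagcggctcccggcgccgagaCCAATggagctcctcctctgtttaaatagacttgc
In the known layout of the locus the Cdkn2a start nearer to Cdkn2b makes the Arf transcript and the other one makes Ink4a. The probe set for Cdkn2a is named for the gene as a whole, so the values below are not assigned to either transcript. Both Cdkn2a windows held an E2F match, as did 4.28% of the 32851 promoter windows of this length in the table. The Cdkn2b window held the CRE match, found in 1.55% of all windows. The Cdkn1b window and the downstream Cdkn1a window held GGGCGG and were among 7 such windows of the 11 found for 7 of the 9 genes, against 32.74% of all windows. The upstream Cdkn1a window (chr17:29090729-29090978), not shown, held none of the motifs. No E-box, AP-1 or TATAAA match lay in any of the 11 windows, and no matches of different motifs overlapped. GC content was above the median of all windows (52.4%) in 10 of the 11, from 42.8% to 78.4%. A match is a description of the letters and not a binding site.

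The values are log2 signals, and every group mean below rests on n = 2 arrays. The array medians lay between 5.83 and 5.93 and the lower quartiles between 4.23 and 4.38. The standing probe set of each of the 9 genes, the brightest of those named for it, was above the lower quartile on all 6 arrays, and above the array median on all 6 except for Cdkn2a, which was above it on 5. The 3′ signal of the beta-actin control exceeded the 5′ signal by 0.89 in SSC replicate 1 and by 0.12 to 0.61 in the other arrays. For the transferrin receptor control the excess was 2.555 in SSC replicate 1 and 1.124 to 2.067 in the others. For pyruvate carboxylase it was 2.735 and 0.883 to 1.316, and for Gapdh 0.251 and -0.353 to -0.103. Markers set mSSC apart from both other kinds: of 10 pluripotency markers 10 rose in mSSC against SSC and 9 against iSSC. Of all genes 8.22% and 7.53% rose there. The brightest, Dppa5a and Lin28a, rose by 4.74 and 1.56 against SSC, Lin28a did not pass against iSSC (1.23, adjusted p = 0.053), and Nanog and Tdgf1 were below the lower quartile in SSC and iSSC. Of 9 measured spermatogonial markers 7 fell and 2 rose in mSSC against SSC, and 7 fell against iSSC, where 10.6% and 9.6% of all genes fell. Between iSSC and SSC 0 of the 10 pluripotency and 0 of the 9 spermatogonial markers passed in limma, where 2.09% of all genes did. By unadjusted p under 0.05 it was 2 and 4, and 3090 of all 18194 genes. In lists this short a count of 0 lies near the share of all genes, so it does not show equal levels in iSSC and SSC.

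**Figure D1:**
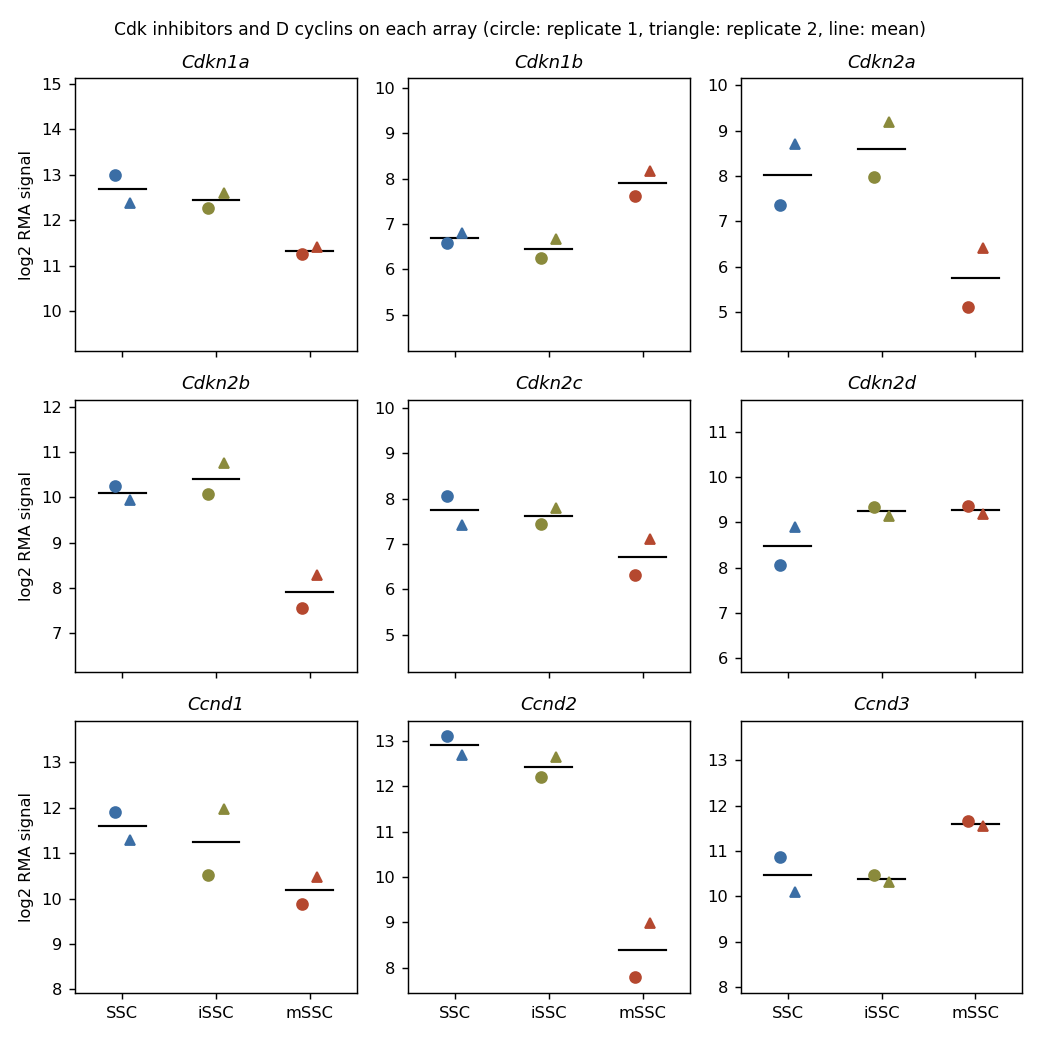
Log2 RMA signal of each of the 9 genes (y axis, each panel spanning 6 log2 units) on the 2 arrays of SSC, iSSC and mSSC, with the group mean as a line. Ccnd2 and Cdkn2b were lowest in both mSSC arrays, whereas Cdkn1b and the standing probe set of Ccnd3 were highest there.

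The comparison of mSSC with SSC asks what differs between the multipotent and the unipotent cells. In mSSC the D cyclin Ccnd2 fell 22.7-fold, the inhibitor Cdkn2b fell 4.53-fold and the inhibitor Cdkn1a fell 2.56-fold, while Cdkn1b rose 2.30-fold. Ccnd3 rose 2.19-fold on its brightest probe set but fell on another. In limma 5 of the 9 genes passed at an adjusted p under 0.05, against 18.8% of all genes. Of these, 3 were lower (10.6% of all genes) and 2 were higher (8.22% of all genes). The median difference of the 9 was -1.36, against 0.08 over all genes. Against iSSC, which asks what the intermediate cells lack or keep, 6 of the 9 passed, 4 lower and 2 higher in mSSC, where 17.1% of all genes passed, 9.6% lower and 7.53% higher. The gene added was Cdkn2a, and Ccnd3 is again counted by its brightest probe set. The median of the 9 was -1.07 there and that of all genes -0.01. Both comparisons share the mSSC arrays, so their results are not independent of each other.

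Between iSSC and SSC, 0 of the 9 genes passed in limma, where 2.09% of all genes did (0.225% higher and 1.87% lower). By unadjusted p under 0.05 it was 1, Cdkn2d, and none of the other settings run called any. The median difference of the 9 was -0.13. The 95% intervals still allowed changes of more than 2-fold in at least 1 direction for Cdkn2a, Cdkn2b, Cdkn2d, Ccnd1 and Ccnd2, so a p above the threshold does not show equal levels.

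**Figure D2:**
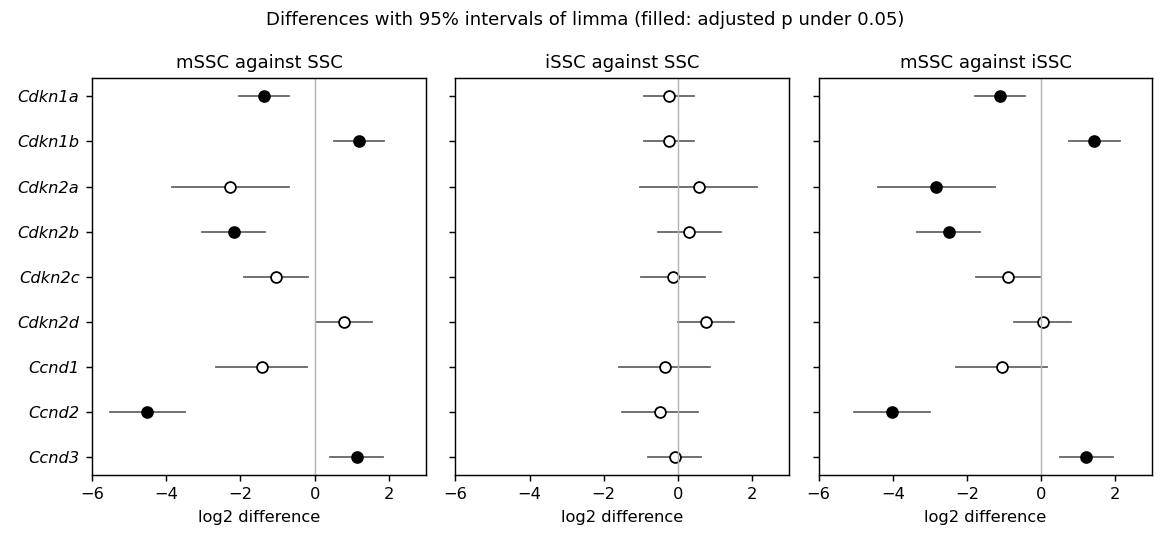
Log2 difference of group means (x axis) for each gene in the 3 comparisons, with the 95% interval of limma as a line and filled points for adjusted p under 0.05. Ccnd2 lies at -4.51 and -4.03 in the comparisons that hold mSSC, and every interval of the middle panel lies near or across 0.

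Among the D cyclins, Ccnd2 changed most. Ccnd2 (probe set 1416122_at) had signals of 13.10 and 12.70 in SSC, 12.20 and 12.64 in iSSC, and 7.79 and 8.99 in mSSC. Both mSSC arrays lay far below the other 4, and the higher iSSC array (12.64) was just under the lower SSC array (12.70). The difference was -4.51 ± 0.42 (SE) for mSSC against SSC (limma, adjusted p = 0.0021) and -4.03 ± 0.42 against iSSC (adjusted p = 0.0031). It was -0.48 ± 0.42 for iSSC against SSC (adjusted p = 0.64, 95% interval -1.50 to 0.54). In bulk samples such as these, fewer cells that make a transcript and less RNA per cell cannot be told apart.

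All 7 probe sets of Ccnd2 were lower in mSSC than in SSC, by 2.26 to 4.51, and 6 of them passed when adjusted over all 34958 single-symbol probe sets. The same number passed against iSSC, where the differences ran from -4.17 to -2.99. The 4 brightest were at 11.29 to 13.10 in the SSC and iSSC arrays. The 3 dimmest were lower in replicate 1 than in replicate 2 of every kind. The dimmest but one, 1416124_at, had 6.30 and 8.43 in SSC, 7.07 and 8.98 in iSSC, and 4.33 and 5.65 in mSSC, and its mSSC against SSC difference of -2.38 ± 0.94 had adjusted p = 0.16. For iSSC against SSC the sign differed among the probe sets, with 4 of 7 below 0.

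Ccnd1, the D cyclin best known as a target of growth factor signals, did not pass in any comparison. Its signals (1417420_at) were 11.92 and 11.29 in SSC, 10.52 and 11.97 in iSSC, and 9.88 and 10.48 in mSSC. The mSSC arrays were the lowest, with the higher of them just under the lower iSSC array, and the iSSC arrays spread over the whole SSC range (SD 1.02). The difference from SSC was -1.43 ± 0.51 (adjusted p = 0.10) and that from iSSC -1.07 ± 0.51 (adjusted p = 0.22). All 3 probe sets were below 0 in every comparison, from -1.91 to -0.94 for mSSC against SSC.

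Ccnd3, the third D cyclin, gave no single direction. On 1415907_at it had 10.86 and 10.09 in SSC, 10.47 and 10.31 in iSSC, and 11.65 and 11.56 in mSSC, so that both mSSC arrays were the highest. This probe set rose by 1.13 ± 0.29 against SSC (adjusted p = 0.043) and by 1.22 ± 0.29 against iSSC (adjusted p = 0.036). On 1438805_at the signals were 7.13 and 7.49 in SSC, 7.60 and 7.30 in iSSC, and 6.09 and 5.41 in mSSC, so that both mSSC arrays were the lowest. That probe set fell by 1.56 ± 0.30 against SSC (adjusted p = 0.028 over all probe sets) and by 1.70 ± 0.30 against iSSC (adjusted p = 0.022). Adjusted over all probe sets in the same way, the rise of 1415907_at did not pass (adjusted p = 0.061 and 0.052), so on that basis only the fall of 1438805_at passed. The remaining one, 1444323_at, was at 0.21 ± 0.29 and 0.08 ± 0.29. The mean of the 3 probe sets was at -0.07 against SSC (adjusted p = 0.86) and at -0.13 against iSSC (adjusted p = 0.77). On the standing probe set the call against SSC was also lost without SSC replicate 2 or either array of iSSC or mSSC (adjusted p from 0.082 to 0.14), and that against iSSC without any one of the iSSC or mSSC arrays (0.096 to 0.20).

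**Figure D3:**
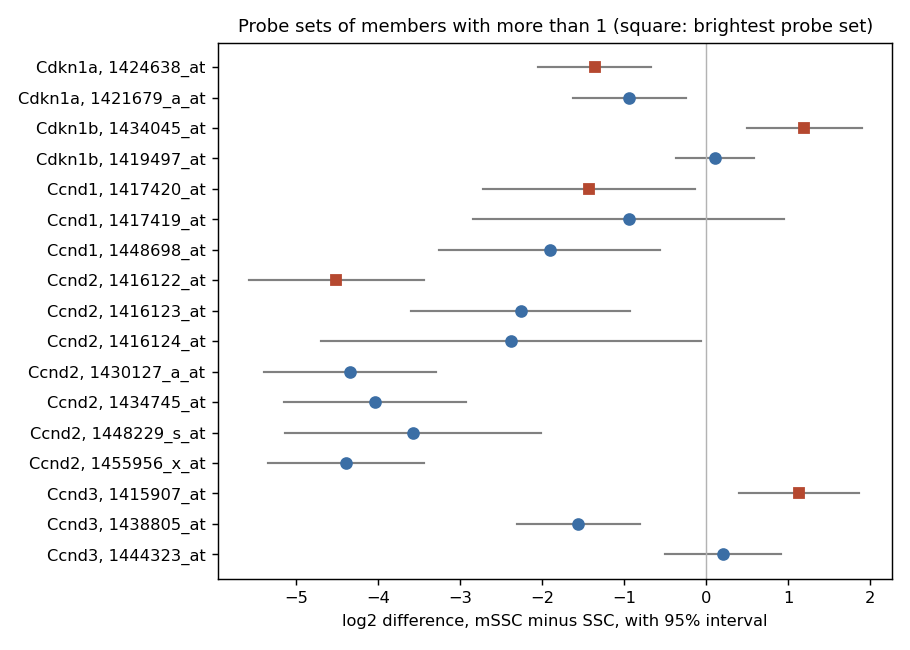
Log2 difference of mSSC minus SSC (x axis) with its 95% interval for each probe set of the 5 genes that have several, the brightest drawn as a square. All 7 probe sets of Ccnd2 lie below 0, whereas those of Ccnd3 run from -1.56 to 1.13.

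Among the Ink4 inhibitors, which block Cdk4 and Cdk6, Cdkn2b (p15) fell in mSSC against both other kinds. Its signals (1449152_at) were 10.26 and 9.94 in SSC, 10.07 and 10.76 in iSSC, and 7.56 and 8.28 in mSSC. The mSSC arrays lay below all others, and SSC and iSSC overlapped. The difference was -2.18 ± 0.35 against SSC (adjusted p = 0.010) and -2.49 ± 0.35 against iSSC (adjusted p = 0.0072), a 5.62-fold lower signal. It passed against SSC without any 1 array, and against iSSC in all but iSSC replicate 2, without which adjusted p was 0.055.

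Cdkn2a, which encodes Ink4a (p16) and Arf (p19), had the same order of groups with a wider spread. Its signals (1450140_a_at) were 7.35 and 8.70 in SSC, 7.98 and 9.20 in iSSC, and 5.10 and 6.40 in mSSC. Both mSSC arrays were below the other 4, and SSC and iSSC overlapped. It fell by 2.83 ± 0.65 against iSSC (adjusted p = 0.032), but not when adjusted over all probe sets (adjusted p = 0.051). The difference from SSC, -2.27 ± 0.65, did not pass (adjusted p = 0.058) but did under 5 of 19 other settings. The call against iSSC was lost without either iSSC array or without mSSC replicate 1 (adjusted p from 0.076 to 0.17). In each kind replicate 2 was the higher array, by 1.35 in SSC, 1.22 in iSSC and 1.30 in mSSC. The excess of 3′ over 5′ signal of beta-actin was the larger in replicate 1 of each kind, at 0.89 against 0.21 in SSC, 0.47 against 0.30 in iSSC and 0.61 against 0.12 in mSSC. The other 3 such controls had the larger excess in replicate 1 of SSC and mSSC but not of iSSC. Their part in the Cdkn2a values was not tested.

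Cdkn2c (p18) and Cdkn2d (p19Ink4d), the Ink4 inhibitors encoded away from that locus, did not pass. Cdkn2c had 8.06 and 7.42 in SSC, 7.44 and 7.79 in iSSC, and 6.31 and 7.11 in mSSC, lowest in both mSSC arrays (-1.03 ± 0.36 against SSC, adjusted p = 0.097; -0.91 ± 0.36 against iSSC, adjusted p = 0.15). Cdkn2d had 8.05 and 8.90 in SSC, 9.34 and 9.13 in iSSC, and 9.36 and 9.19 in mSSC, lowest in both SSC arrays. Its difference from SSC was 0.80 ± 0.31 in mSSC (adjusted p = 0.13) and 0.76 ± 0.31 in iSSC (adjusted p = 0.29), while mSSC and iSSC overlapped (0.04 ± 0.31, 95% interval -0.72 to 0.79). Without SSC replicate 2 the mSSC against SSC difference of Cdkn2d passed, at 1.23 (adjusted p = 0.029).

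The Cip/Kip inhibitors Cdkn1a and Cdkn1b moved in opposite directions on their brightest probe sets. Cdkn1a, a target of p53, had signals (1424638_at) of 13.00 and 12.37 in SSC, 12.27 and 12.60 in iSSC, and 11.25 and 11.41 in mSSC. The mSSC arrays were lowest, and SSC and iSSC overlapped. It fell by 1.36 ± 0.28 against SSC (adjusted p = 0.022) and by 1.11 ± 0.28 against iSSC (adjusted p = 0.042). The dimmer probe set was at -0.94 ± 0.28 against SSC (adjusted p = 0.086 over all probe sets) and at -1.55 ± 0.28 against iSSC (adjusted p = 0.023). Adjusted over all probe sets in the same way, 1424638_at passed against SSC (adjusted p = 0.032) but not against iSSC (adjusted p = 0.058). On the dimmer one both iSSC arrays (10.83 and 11.19) lay above both SSC arrays (10.66 and 10.14). Against SSC the call held without SSC replicate 2 but not without any 1 of the other 5 arrays (adjusted p from 0.052 to 0.083), and against iSSC it was lost without any 1 of the iSSC and mSSC arrays (0.098 to 0.24).

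Cdkn1b had signals (1434045_at) of 6.58 and 6.81 in SSC, 6.24 and 6.67 in iSSC, and 7.61 and 8.17 in mSSC. Both mSSC arrays were above all others. It rose by 1.1995 ± 0.28 against SSC (adjusted p = 0.033) and by 1.44 ± 0.28 against iSSC (adjusted p = 0.019), a 2.70-fold higher signal. Its other probe set was below the lower quartile of the array on all 6 arrays, at 3.42 to 3.77, with a difference of 0.11 ± 0.19 against SSC. With the mean of its probe sets, or with a minimum change of 1.2-fold, the call against SSC was lost. Against SSC the call held without mSSC replicate 1 but not without any 1 of the other 5 arrays (adjusted p from 0.059 to 0.12), and against iSSC it was lost without either iSSC array or mSSC replicate 2 (0.070 to 0.15).

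Markers of other cells moved between the same samples, where 18.8% of all genes passed in mSSC against SSC and 17.1% against iSSC. Of 13 measured fibroblast markers, brightest Col1a2 and Col3a1, 9 fell in mSSC against SSC and 3 against iSSC, and of 12 macrophage markers 11 and 10 fell. The brightest macrophage marker, Lyz2, fell by 8.06 against SSC, while the next brightest, Laptm5, was at -0.69 against SSC (adjusted p = 0.36) and 0.78 against iSSC (adjusted p = 0.33). The summed fibroblast signal (log2 of the sum) was 16.43 and 15.72 in SSC, 13.72 and 14.18 in iSSC, and 11.49 and 13.74 in mSSC, and 0 of the fibroblast markers was below the lower quartile in both arrays of any kind. The summed macrophage signal was 16.05 and 15.43 in SSC, 14.46 and 13.73 in iSSC, and 10.73 and 11.87 in mSSC, where C1qb and Ptprc were below the lower quartile. The median macrophage marker was at 12.2 and 11.2 in SSC, 10.1 and 9.08 in iSSC, and 5.22 and 4.95 in mSSC. Of 10 Sertoli cell markers, brightest Clu and Aldh1a1, 8 fell in mSSC against SSC, from summed levels of 14.02 and 14.18 to 10.23 and 10.02, with 12.81 and 11.56 in iSSC, and Aldh1a1 was below the lower quartile in mSSC. Between iSSC and SSC 5 macrophage, 3 Sertoli, 1 fibroblast and 1 peritubular marker fell, where 1.87% of all genes fell. Of 6 peritubular markers 3 fell in mSSC against SSC, among them the brightest, Acta2 and Tagln. Of 6 endothelial markers 2 rose, Pecam1 and Tek (the latter named after its value was seen), and 4 did not pass. Among those 4, Kdr was at -0.20 (adjusted p = 0.68) and Emcn was below the lower quartile in mSSC. Of 4 Leydig cell markers, brightest Star and Cyp11a1, 0 passed in limma and 1 had an unadjusted p under 0.05. Spermatogonial markers, of which the brightest were Dazl, which fell, and Sall4, which rose against SSC, stood at summed levels of 14.39 and 14.59 in SSC, 14.03 and 14.14 in iSSC, and 12.93 and 13.16 in mSSC. The part of fibroblasts, macrophages, Sertoli cells, peritubular cells and the germ line signal in the differences of the 9 genes was not tested.

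**Figure D4:**
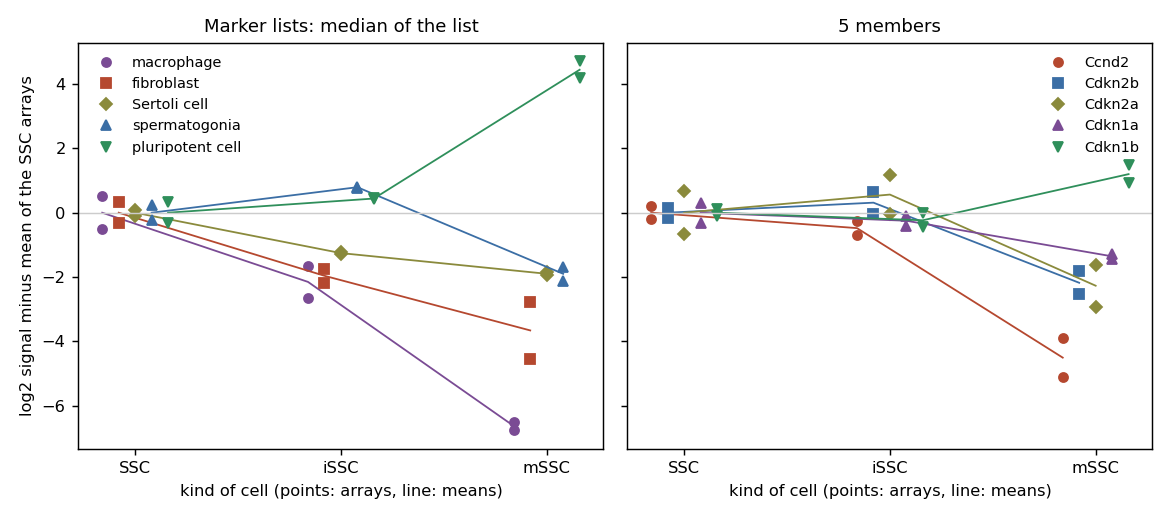
Left, the median log2 signal of each marker list on each array, and right, the signal of 5 of the 9 genes, both as differences from the mean of the SSC arrays (y axis) by kind of cell; points are arrays and lines join the group means. The fibroblast, macrophage and Sertoli medians are lower in iSSC than in SSC and lower again in mSSC, and Ccnd2, Cdkn2b, Cdkn2a and Cdkn1a are lowest in mSSC.

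Other inhibitors and the partners of these proteins gave a mixed picture, where 18.8% of all genes passed in mSSC against SSC and 17.1% against iSSC. Cdkn1c (p57), the third Cip/Kip inhibitor and an imprinted gene, fell from 9.65 and 9.12 in SSC to 6.86 and 6.83 in mSSC, with 8.62 and 8.45 in iSSC. The difference was -2.54 ± 0.25 against SSC (adjusted p = 0.0023) and -1.69 ± 0.25 against iSSC (adjusted p = 0.0081). Cdkn3, a phosphatase that acts on Cdks, fell by 1.06 ± 0.22 against iSSC (adjusted p = 0.023). Of 5 Cdks, Cdk1 alone passed: it rose by 1.83 ± 0.21 against SSC (adjusted p = 0.0038) and by 1.19 ± 0.21 against iSSC (adjusted p = 0.014). The partners of the D cyclins were at 0.45 ± 0.23 for Cdk4 (adjusted p = 0.23) and -1.17 ± 0.47 for Cdk6 (adjusted p = 0.14) in mSSC against SSC, and Cdk2 was at 1.12 ± 0.64 (adjusted p = 0.28). Of 5 measured E, A and B cyclins 2 rose against SSC and 0 passed against iSSC in limma, where 1 had an unadjusted p under 0.05. The 2 that rose against SSC, 40.0% of the list, were Ccne1 (1.66 ± 0.28, adjusted p = 0.011) and the mitotic cyclin Ccnb2 (1.16 ± 0.27, adjusted p = 0.033). Ccne1 drives entry into S phase with Cdk2.

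Downstream, 3 of 13 genes of the retinoblastoma family and the E2f factors passed in mSSC against SSC, a share of 23.1% against 18.8% of all genes. Rb1 and Rbl2, pocket proteins that hold E2f factors back, fell by 1.13 ± 0.23 (adjusted p = 0.020) and 1.06 ± 0.23 (adjusted p = 0.025). The activator E2f2 rose by 0.87 ± 0.21 (adjusted p = 0.034). With probe sets averaged, or with only the 4 arrays compared, 0 of the 13 passed, where 3123 and 1966 of all genes did. Rb1 was at -1.25 ± 0.23 in iSSC against SSC, which did not pass (adjusted p = 0.054). Against iSSC the activator E2f1 fell by 1.13 ± 0.23 and E2f6 by 0.93 ± 0.23, while E2f4 rose by 1.34 ± 0.32. Of 13 proliferation markers 2 rose against SSC, the ribonucleotide reductase subunit Rrm2 (2.79 ± 0.41) and Birc5 (2.59 ± 0.46), and 2 others rose against iSSC, the spindle checkpoint kinase Bub1 (2.13 ± 0.35) and Top2a (1.59 ± 0.25). The shares, 15.4% in each comparison, lay near those of all genes, while the median of the markers was 0.83 against SSC and 0.63 against iSSC. Mki67 (-0.62 ± 0.81) and Tyms (-1.04 ± 0.35), both named after their values were seen, were below 0 against SSC without passing.

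Cdkn1a is 1 of many targets of p53. Of 18 other genes of the p53 pathway, mostly targets like Cdkn1a, 2 rose and 1 fell in mSSC against SSC, a share of 16.7% against 18.8% of all genes. The death receptor Fas fell by 1.25 ± 0.26 (adjusted p = 0.023), and the receptor Tnfrsf10b and the stress gene Gadd45a rose by 1.36 ± 0.21 and 0.86 ± 0.21. Against iSSC Fas fell by 2.34 ± 0.26 and Eda2r and Trp53inp1 rose by 1.78 ± 0.32 and 1.29 ± 0.23, with 2 higher and 2 lower in all. The median of the 18 was 0.43 and 0.40. Mdm2, the p53 target that limits p53, was at -0.33 ± 0.29 (adjusted p = 0.47) and -1.02 ± 0.29 (adjusted p = 0.058). Of 4 genes for the turnover of p27, the scaffold Cul1 fell by 0.98 ± 0.22 against SSC (adjusted p = 0.030), and Skp2, which recognises p27, was at 0.68 ± 0.24 (adjusted p = 0.10).

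Regulators of the Ink4b-Arf-Ink4a locus changed in both directions. Of 18 measured, 4 rose and 4 fell in mSSC against SSC, and 5 rose and 4 fell against iSSC. Among all genes 18.8% passed against SSC (8.22% higher and 10.6% lower) and 17.1% against iSSC (7.53% higher and 9.6% lower). Bmi1, a Polycomb protein known for silencing the locus, fell by 2.02 ± 0.38 against SSC (adjusted p = 0.016), whereas the Polycomb genes Cbx7 and Ezh2 rose by 2.21 ± 0.30 (adjusted p = 0.0064) and 2.28 ± 0.37 (adjusted p = 0.010). Suz12, a partner of Ezh2, rose by 1.22 ± 0.32 against SSC (adjusted p = 0.044) and by 2.89 ± 0.32 against iSSC (adjusted p = 0.0036). Ets1, an activator of Ink4a, had 8.92 and 9.04 in SSC, 9.37 and 9.88 in iSSC, and 6.27 and 6.96 in mSSC, and fell by 2.36 ± 0.31 (adjusted p = 0.0057). Kdm6b, a histone demethylase that opposes Polycomb, fell by 1.63 ± 0.24 (adjusted p = 0.0080).

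Upstream of the D cyclins, 3 of 12 measured signalling genes rose and 1 fell in mSSC against SSC, 33.3% of the list against 18.8% of all genes. Fosl2, a subunit of AP-1, fell by 3.56 ± 0.75 (adjusted p = 0.023), with 4.75 and 7.23 in the mSSC arrays. Tcf7l1, a repressor in the Wnt pathway, rose by 1.74 ± 0.30 (adjusted p = 0.012) and Smad7 by 0.87 ± 0.20 (adjusted p = 0.031). Against iSSC 3 rose and 3 fell, among them Fosl1, another AP-1 subunit (-3.05 ± 0.50, adjusted p = 0.011), and Klf4 (1.27 ± 0.23, adjusted p = 0.015). None of 6 Myc family genes passed in limma, with 1 at an unadjusted p under 0.05 in each of those comparisons, and Myc and Mycn were at -0.45 ± 0.42 and 0.53 ± 0.32 against SSC. Of 5 genes for the turnover of D cyclins 2 fell against SSC, Cryab (-3.41 ± 0.58, adjusted p = 0.012) and Fbxo4 (-1.39 ± 0.32, adjusted p = 0.030), whose products act together on cyclin D1. Against iSSC Cryab fell by 5.22 ± 0.58 and Fbxo31, another F-box protein, by 1.09 ± 0.21. The share of these turnover genes that passed was 40.0% in each of the 2 comparisons, where 18.8% and 17.1% of all genes passed.

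**Figure D5:**
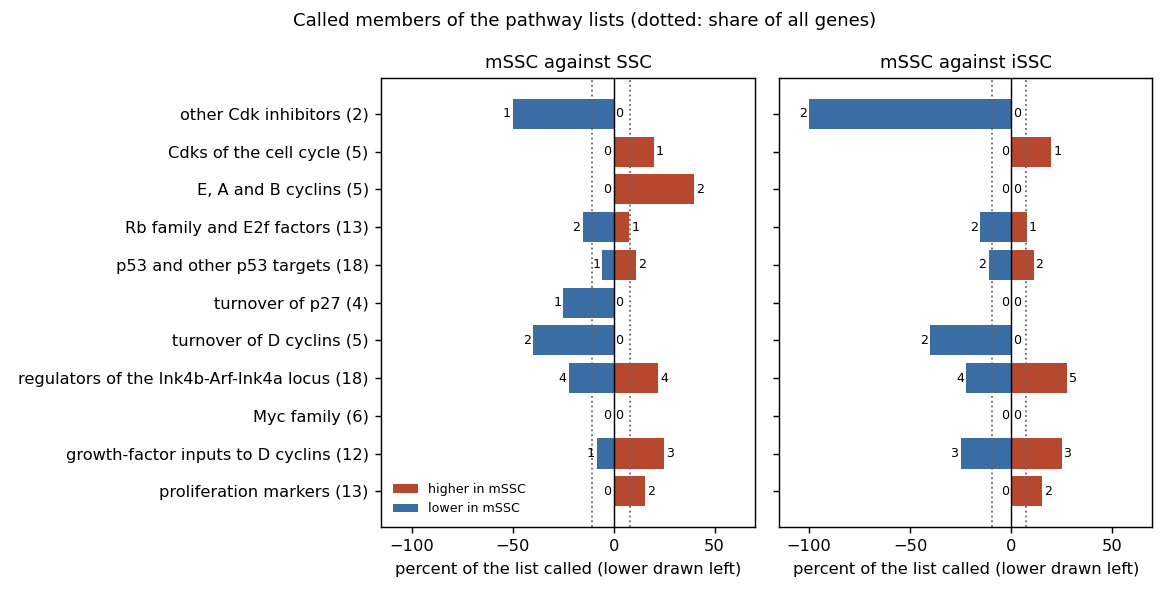
Percent of each pathway list that passed as higher (right, red) or lower (left, blue) in mSSC against SSC and against iSSC, with the counts beside the bars, the list size in brackets and the share of all genes as dotted lines. Regulators of the Ink4b-Arf-Ink4a locus reach beyond the dotted lines on both sides in both panels. Against iSSC the growth-factor inputs, the p53 targets, and the Rb family with the E2f factors do so too.

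Likeness of pattern was described by Pearson's r over the 6 arrays, among the 5783 other genes whose group means spanned at least 1. The 6 points fall into groups by kind of cell, so r is a description with no p. Nearest to Ccnd2 were Sorbs2 (r = 0.9993), Mbd2 (0.9993) and Micu2 (0.9986), and 457 genes had r above 0.95 with it. Nearest to Cdkn2b were Scmh1 (0.9982), Glt8d1 (0.9977) and the basement membrane gene Nid1 (0.9952), out of 331 above 0.95. For Cdkn2a they were Dync1li2 (0.9902), Commd3 (0.9886) and Shisa3 (0.9881), out of 84, and all 3 also had the higher signal in replicate 2 of each kind. For Cdkn1a they were Tmem127 (0.9985), Tns1 (0.9977) and Havcr2 (0.9972), out of 336. For Cdkn1b, which rose, they were Slc25a16 (0.9951), Rpp25 (0.9934) and Dppa2 (0.9891), out of 117. For the standing probe set of Ccnd3 they were Zfp599 (0.9987), Chek2 (0.9967) and Shkbp1 (0.9964), out of 143. Ccnd1 had only 9 genes above 0.95, led by Meis1 (0.9884), Myadm (0.9678) and Gm2115 (0.9669). Cdkn2c had 102, led by Prkg2 (0.9967), Trim7 (0.9954) and Tor4a (0.9941). Cdkn2d did not span 1 and was left out.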

How the data were processed

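Of 45101 probe sets, 34958 had exactly 1 gene symbol in the platform annotation, and the one with the highest mean over 6 arrays stood for each of 18194 genes. The deposited values are log2 signals per probe set, made by the authors with RMA per the submitters' processing notes (version not given in the sources used here). RMA forces a common distribution on the arrays, which can hide a shift of all genes, and can compress dim differences.

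The tests used 1 group-means model over the 6 arrays (limma 3.58.1, R 4.3.3), 2-sided, with Benjamini-Hochberg adjustment over all genes of a comparison. Probe sets were also tested singly. The calls were tested on simulated data. The 9 genes, the pathway and marker lists and the rule for named genes were chosen with earlier results of these data known. The rule names all 9, up to 3 called genes with the smallest p of each pathway list, a fixed panel of partners, and 3 genes most like each of the 9 whose group means span at least 1. Of each marker list it names the 2 brightest, and C1qb, Ptprc, Emcn, Nanog and Tdgf1 were named after their values were seen, as the markers below the lower quartile. Other settings tried were a replicate term, filters, variance models, scalings, probe set choices, minimum changes and leaving out each array. Listed genes with no single-symbol probe set were not analysed here, 9 in all.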

Additional observations from a re-analysis of the deposited data

How the results depend on the processing

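Over all alternatives and arrays left out, Ccnd2 kept its direction and call in mSSC against SSC and against iSSC in 18 of 19 settings each, and Cdkn2b in 18 and 17. The exceptions were the unmoderated test and, for Cdkn2b against iSSC, leaving out iSSC replicate 2. The settings are not separate tests, since leaving out an array of the third kind repeats the fit to the 4 arrays compared. Cdkn2b has 1 probe set, so choosing or averaging probe sets left its signals unchanged. The 2-fold filter could not remove a call at differences of this size. Cdkn2a passed against SSC with a replicate block (adjusted p = 0.0053), among brighter genes (0.041), with a variance trend (0.047, or 0.046 when robust) and with median centring (0.048). The replicate block tests whether same-numbered arrays pair; replicate differences correlated over genes at 0.12 for SSC and iSSC, 0.068 for SSC and mSSC and 0.17 for iSSC and mSSC, so not all were over 0.1 and the numbers were not taken to pair the arrays, although Cdkn2a was higher in replicate 2 of every kind. With the block 6, 0 and 5 of the 9 genes passed in mSSC against SSC, in iSSC against SSC and, last, in mSSC against iSSC, of 3428, 148 and 3175 genes in all; Cdkn1a against iSSC did not pass (adjusted p = 0.062).

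In mSSC against SSC the count of the 9 was 2 with only the 4 arrays compared (1966 of all genes), 3 with probe sets averaged, 3 with a minimum change of 1.2-fold, and 2 to 4 with an array left out (1966 to 3462 of all genes). Against iSSC it was 3 with probe sets tested singly and 1 to 6 with an array left out (604 to 3724 of all genes). The unmoderated test called 0 of the 9 in each comparison, and 14, 2 and 26 genes in all. In iSSC against SSC 0 of the 9 passed in every setting, while the count of all genes, 381, became 29 with probe sets averaged, 113 with the most variable probe set, 203 with the minimum change, 43 with probe sets tested singly and 0 to 503 with an array left out.

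Ccnd3 reversed with the most variable probe set (-1.56 against SSC, -1.70 against iSSC) and with the mean (-0.072 and -0.13); the probe sets themselves differ in sign. Uncalled iSSC against SSC differences that reversed were those of Cdkn1a (0.18 with the mean, 0.61 with the most variable probe set, -0.56 to 0.065 with an array left out), Ccnd3 (0.06, 0.15, and -0.47 to 0.30), Ccnd2 (0.0052 with the mean), Cdkn2a (-0.11 to 1.24), Cdkn2b (-0.032 to 0.66), Cdkn2c (-0.45 to 0.19) and Ccnd1 (-1.08 to 0.36). Cdkn2d in mSSC against iSSC ran from -0.070 to 0.14. Of 627 pathway list counts over the settings 106 moved by over 1.5 times, and of 1058 values of called pathway genes 254 lost their call and 0 reversed. The cause of these shifts was not tested.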

Other observations

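The genes next to the 9 on their chromosomes, up to 2 coding genes on each side in the RefSeq order (GRCm38.p6), are described next. Of 29 measured neighbours outside the 9 genes, 6 passed in mSSC against SSC, 0 in iSSC against SSC and 3 in mSSC against iSSC (limma). The first share, 20.7%, is near the 18.8% of all genes, and the shares of all genes in the other comparisons were 2.09% and 17.1%. Around the locus of Cdkn2a and Cdkn2b, the metabolic enzyme gene Mtap on one side was at 0.68 (adjusted p = 0.20) and the transcription factor gene Dmrta1 on the other at 0.08 (adjusted p = 0.83) in mSSC against SSC, and neither passed against iSSC (adjusted p = 0.23 and 0.62). Tigar, which neighbours Ccnd2 and encodes a regulator of glycolysis, rose by 1.44 in mSSC against SSC (adjusted p = 0.016), while Ccnd2 fell by 4.51. Parp11 on the other side of Ccnd2 was at -1.01 against SSC (adjusted p = 0.052) and fell by 1.38 against iSSC (adjusted p = 0.021). Next to Cdkn1b, Gpr19 rose by 1.16 against SSC (adjusted p = 0.043) and Crebl2 fell by 1.06 (adjusted p = 0.022). All 4 measured neighbours of Cdkn1a, Stk38, Srsf3, Rab44 and Cpne5, did not pass in any comparison.

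The differences of replicate 2 minus replicate 1 of Cdkn2a, 1.35, 1.22 and 1.30 in SSC, iSSC and mSSC, have the same sign in all 3 kinds. Cdkn1b also had the higher value in replicate 2 of each kind, by 0.23, 0.43 and 0.56, and Ccnd3 the lower one, by 0.77, 0.16 and 0.10. The other 6 genes had no common sign.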
